A study of Mus musculus with 27 samples.

Results

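Lifelong calorie restriction was compared with the control diet in the livers of old male C57BL/6J mice. The comparison took 13 of the 27 arrays of the series by the diet group in their labels, namely 5 from calorie-restricted (CR) mice and 8 from control (C) mice, and covered every gene that could be measured. C mice ate AIN-93W, a purified rodent diet, ad libitum. CR mice ate AIN-93W-CR, which was enriched in vitamins and minerals, in daily afternoon portions holding 30% less energy than C mice took in on average. By the paper, the enrichment was meant to match the micronutrients fed to C mice and to avoid malnutrition. Both diets ran from early adulthood until sacrifice at 28 months of age. Every mouse was fasted for 4 h, given a gavage of carboxymethyl cellulose without any test compound, and fasted for a further 6 h. CR mice received part of their usual portion shortly before the first fast, whereas it was not given in the sources used here when each C mouse had last eaten. Energy intake, meal timing and diet formula therefore cannot be told apart, and the mice were those that had survived to this age. The other 14 arrays came from 7 mice on a medium-fat diet (MF) and from 7 mice switched from CR to that diet at 24 months (CR-MF).

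As background, the liver supplies glucose between meals, first from glycogen and then by gluconeogenesis, and in fasting the coactivator PGC-1alpha and related factors raise the genes for this task. Hepatocytes also fold and secrete most plasma proteins, which occupies the chaperones of the endoplasmic reticulum (ER). Macrophages of the liver comprise resident Kupffer cells and cells recruited from blood monocytes, and the latter are known to accumulate in fatty and ageing liver. The arrays measured RNA of whole liver, so that fewer cells of a type and less RNA per cell cannot be told apart.

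At an adjusted p of 0.05 (limma, Benjamini-Hochberg over all genes tested), 220 of 13993 genes differed between CR and C, or 1.57%. Of these 107 were higher in CR (0.765% of the genes tested) and 113 were lower (0.808%). At an unadjusted p of 0.01, 491 genes were higher (3.51%) and 632 were lower (4.52%). In 91 genes all 5 CR mice lay above all 8 C mice (0.65%), and in 192 genes all lay below (1.37%). The median log2 difference over all genes tested was 0.02, a value that the joint normalization of the arrays holds near 0. Levels below are log2 intensities, on which a difference of 1 is a doubling. Values of CR mice are given in the order B4_1, B4_5, B4_7, B4_13 and B4_3, and those of C mice as the lowest, median and highest of 8.

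**Figure D1:**
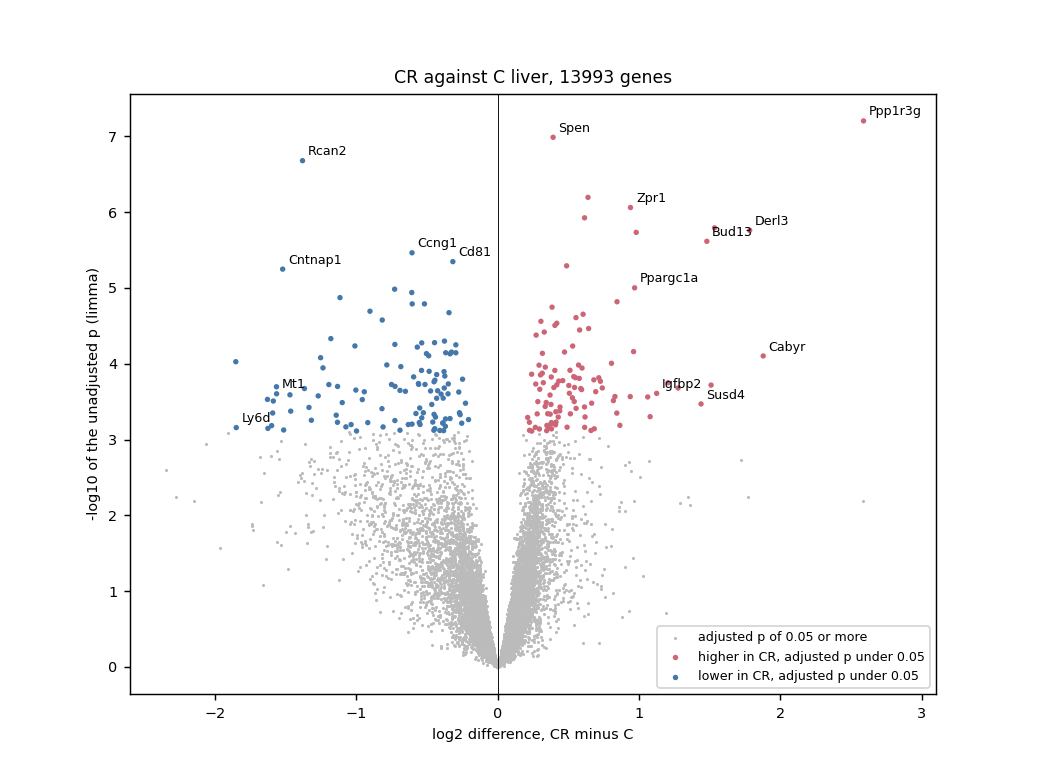
Each point is 1 of 13993 genes, placed by its log2 difference (CR minus C) and the -log10 of its unadjusted p from limma, with coloured points for the 220 genes at an adjusted p under 0.05. Ppp1r3g lies farthest to the right at 2.59, and Rcan2, Ccng1 and Cd81 have the smallest p among the genes that fell.

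The 13 arrays had median log2 intensities between 5.38 and 5.46 and correlated with each other at 0.98 to 0.99. Hepatocyte markers were high in every liver, with a mean log2 level of 12.99 to 13.10 in C and of 12.98 to 13.20 in CR. These levels lie near the top of the intensity scale, where arrays can saturate, and 4 of the 9 markers passed the filter, so that the range shows the tissue and not an equal content of hepatocytes. Scores on the first principal component, which held 21.7% of the variance, averaged -32.0 ± 43.6 (SD, n = 8) in C and 51.2 ± 20.7 (SD, n = 5) in CR, and this difference passed a two-sided exact permutation test (p = 0.00466, adjusted p = 0.00932 over 2 components). The C mouse A4_1 scored 40.2 and so lay among the CR mice. On the second component (12.6% of the variance) the groups had means of -3.95 ± 23.4 and 6.31 ± 65.1 (exact permutation p = 0.692), and the CR mice themselves were pulled apart, from -96.5 in B4_5 to 79.0 in B4_3. The distance of single mice from their group mean (root mean square over genes, in log2) was 0.238 ± 0.0348 (SD, n = 5) in CR and 0.261 ± 0.0315 (SD, n = 8) in C, a difference of -0.0229 (exact permutation p = 0.237). Without B4_5 the difference was -0.0423 (exact permutation p = 0.0404). B4_5 was the CR mouse farthest from its group mean (0.293), so that leaving it out lowers the CR spread by that choice. No other single omission gave a p under 0.05. Among the arrays of code G150 alone, described below, the difference was 0.00782 (exact permutation p = 0.643).

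Array names begin with a code that was taken here for the array plate, though no source used here says so. By this code 6 C and 3 CR arrays shared plate G150, while G151 and G152 held 1 array of each group. Among the 28 genes named below for the size of their change, 24 kept their call when plate entered the model as a block. Among the arrays of G150 alone 12 were called, and there all 28 had the same direction and an unadjusted p under 0.05 by limma. The single pairs on G151 and G152 had the same direction in 28 and in 26 of these genes. The 28 genes were picked for size and p over these same arrays. Agreement within them was thus in large part set by that choice and is no independent check. With 1 mouse left out at a time the number of called genes ran from 42 (without CR mouse B4_3) to 569 (without C mouse A4_1). It was 48 without B4_1, 65 without A4_17, 86 without B4_13, 89 without A4_3, 122 without A4_5, 130 without B4_7 and 352 without B4_5. Counts by gene list with a mouse left out are given below only for A4_1 and B4_5. Their omission raised the total the most. A4_1 lay among the CR mice, so that leaving it out widens the difference by that choice. Higher list counts in these settings are thus no added support. Of the 220 genes, 27 were called whichever mouse was left out, 16 of them higher in CR and 11 lower. Of the 28 named genes 8 belong to these, namely Ppp1r3g, Derl3, Ceacam2, Bud13, Etfbkmt, Ppargc1a, Cntnap1 and Rcan2.

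**Figure D2:**
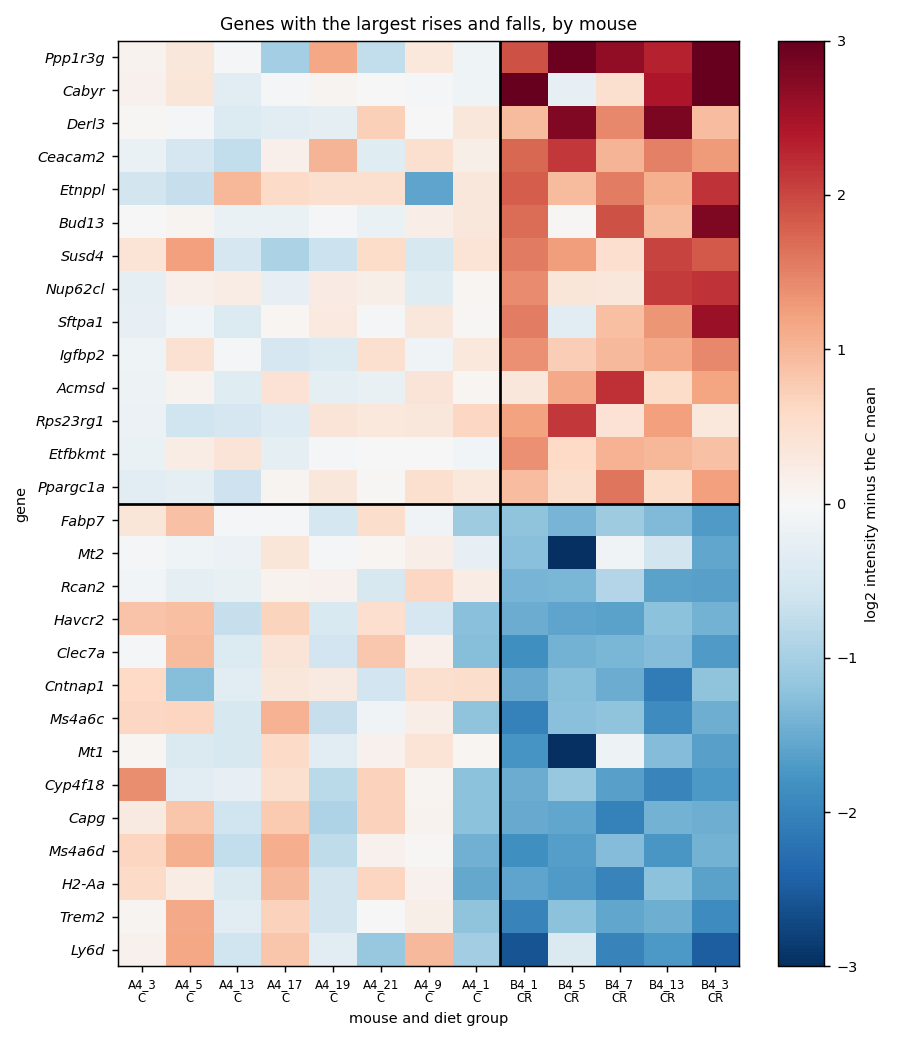
Rows are the 28 genes named for size, 14 that rose above 14 that fell, columns are the 13 mice with their diet group, and colour is the log2 intensity minus the C mean. The C mouse A4_1 is blue (below the C mean) in H2-Aa, Trem2, Capg and other myeloid genes, and the CR mouse B4_5 lacks the rise of Bud13, Cabyr and Sftpa1.

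The largest rise among the called genes was that of Ppp1r3g, a subunit that targets protein phosphatase 1 to glycogen and promotes glycogen synthesis in the liver. Its log2 levels were 8.26, 9.30, 9.03, 8.66 and 9.47 in CR against 5.35, 6.38 and 7.52 in C. Every CR mouse lay above every C mouse. The log2 difference was 2.59 (SE 0.35, adjusted p = 0.000721), a 6.01-fold rise. CR-MF mice averaged 6.16 ± 0.74 and MF mice 5.90 ± 0.64 (SD, n = 7 each), which are close to the C mean of 6.36 ± 0.67. Of the 17 tested members of the glycogen list, Ppp1r3g was the only gene called higher, and glycogenin (Gyg), the protein primer of glycogen, was the only gene called lower (-0.44, SE 0.10, adjusted p = 0.0276). The median over the 18 measured members was 0.08. The call of Gyg ended without A4_17, A4_3, B4_1, B4_3, B4_7 or B4_13 (adjusted p up to 0.101).

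Of 17 tested gluconeogenesis genes, 3 were called higher in CR and none lower, and the median of the 18 measured was 0.16. Ppargc1a encodes PGC-1alpha, the fasting coactivator of gluconeogenic and mitochondrial genes, and its levels were 9.17, 8.76, 9.84, 8.80 and 9.47 in CR against 7.63, 8.30 and 8.72 in C. The groups did not overlap, and the difference was 0.97 (SE 0.18, adjusted p = 0.0091). Sik1, a kinase that is induced by cyclic AMP and restrains the same programme, stood at 9.47, 8.71, 9.83, 9.25 and 10.02 in CR against 8.05, 8.56 and 9.26 in C (0.84, SE 0.21, adjusted p = 0.0394). Its groups overlapped through B4_5 and B4_13. Klf15, a transcription factor of amino acid breakdown and gluconeogenesis, differed by 0.44 (SE 0.11, adjusted p = 0.0352). Pck1, the gene of the rate-limiting enzyme PEPCK, missed the threshold at 0.34 (SE 0.09, adjusted p = 0.0627). Sik1 lost its call without A4_17, A4_19, A4_21, A4_3, B4_1, B4_3, B4_7 or B4_13 (adjusted p up to 0.135), and Klf15 without A4_17, A4_3, A4_5, B4_1, B4_3, B4_7 or B4_13 (up to 0.125). Without B4_5 the list had 6 members called higher, and within plate G150 it had 1.

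Single genes of the growth hormone and amino acid lists passed the test. Igfbp2, a secreted binding protein of insulin-like growth factors, was at 11.35, 10.72, 10.96, 11.13 and 11.43 in CR against 9.49, 9.90 and 10.46 in C. No CR mouse overlapped with C, and the difference was 1.12 (SE 0.27, adjusted p = 0.0286). It was the only one of 21 tested growth hormone and IGF genes that was called, and the leptin receptor Lepr, with a difference of 1.07 (SE 0.31), had an adjusted p of 0.0676. Igfbp1, chosen after its values were seen as the better known fasting-induced relative, was at 10.04, 8.97, 11.43, 10.39 and 11.62 in CR against 8.82, 9.74 and 10.51 in C (0.81, SE 0.48, adjusted p = 0.358). B4_7 and B4_3 lay above the C range and the other CR mice within it. Etnppl, which breaks down phosphoethanolamine, was at 9.95, 9.09, 9.67, 9.20 and 10.29 in CR against 6.54, 8.54 and 9.12 in C (1.51, SE 0.35, adjusted p = 0.0276), and B4_5 fell just inside the C range. Acmsd, which steers tryptophan breakdown away from NAD synthesis, was at 7.60, 8.41, 9.45, 7.82 and 8.46 against 6.91, 7.23 and 7.71 (1.08, SE 0.27, adjusted p = 0.0414).

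Among 34 tested genes of the urea cycle and amino acid catabolism, Acmsd was the 1 called higher and Bhmt, which remethylates homocysteine from betaine, the 1 called lower (-0.54, SE 0.12, adjusted p = 0.026), with a median of 0.11 over 36 measured. The transporter Slc43a1 was the 1 called of 16 tested amino acid transporters, at 0.83 (SE 0.20, adjusted p = 0.0297). With 1 mouse left out, the highest adjusted p was 0.101 for Igfbp2 (ended without A4_17, A4_3, B4_1, B4_3, B4_7 or B4_13), 0.101 for Etnppl (A4_3, A4_5, B4_1, B4_3 or B4_7), 0.113 for Acmsd (A4_13, A4_17, A4_19, A4_21, A4_3, A4_5, B4_3, B4_5 or B4_7), 0.0843 for Bhmt (A4_17 or B4_1) and 0.101 for Slc43a1 (A4_17, A4_3, A4_5, B4_1, B4_3 or B4_13). Slc25a25, a mitochondrial carrier of ATP and magnesium, and Noct, a rhythmic gene first known as a deadenylase, were singled out after their values were seen. Slc25a25 rose by 0.84 (SE 0.16, adjusted p = 0.0108) and kept its call in every such omission (up to 0.0477), and Noct rose by 0.72 (SE 0.16, adjusted p = 0.0275) but reached 0.103 without B4_3 and was also lost without 3 other mice.

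A set of rises was seen in some CR mice and not in others. Bud13, a splicing factor, was at 8.25, 6.61, 8.49, 7.54 and 9.39 in CR against 6.37, 6.55 and 6.93 in C (1.48, SE 0.25, adjusted p = 0.0034). All CR mice but B4_5 lay above C. The adjacent gene Zpr1, a zinc finger protein, was at 10.64, 9.83, 10.71, 10.34 and 10.93 against 9.29, 9.56 and 9.89 (0.94, SE 0.15, adjusted p = 0.00244), again with B4_5 within the C range. In the RefSeq annotation of GRCm38.p6, Zpr1 (chr9:46273064-46282643) lies 332 bases from Bud13 (chr9:46282976-46298783), and Apoa5, an apolipoprotein that lowers plasma triglyceride, lies 1142 bases from Zpr1 on its other side. Apoa5 was not called (11.84, 11.43, 11.87, 11.76 and 11.88 against 11.20, 11.54 and 11.82, a difference of 0.25, SE 0.11, adjusted p = 0.207), but B4_5 was again its lowest CR mouse. Zpr1 and Apoa5 were chosen after their values were seen, as neighbours of Bud13.

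Sftpa1, a lung surfactant protein, was at 7.74, 5.86, 7.12, 7.53 and 8.80 in CR against 5.80, 6.20 and 6.54 in C (1.21, SE 0.28, adjusted p = 0.0276). Cabyr, best known from sperm, was at 8.57, 5.09, 5.81, 7.76 and 8.80 against 5.0, 5.30 and 5.70 (1.88, SE 0.40, adjusted p = 0.0209). B4_5 was within the C range in both, and B4_7 was close to it in Cabyr. Nup62cl, a nucleoporin-like gene near the lower end of the intensity scale, was at 4.79, 3.74, 3.72, 5.48 and 5.54 against 3.01, 3.50 and 3.63 (1.28, SE 0.30, adjusted p = 0.0276). Calls ended with 1 mouse left out for Sftpa1 and Nup62cl (A4_17, A4_3, B4_1, B4_3 or B4_13, adjusted p up to 0.101 and 0.113) and for Cabyr (B4_1, B4_3 or B4_13, up to 0.0896). In CR-MF mice Bud13 was at 6.54 ± 0.15 and Sftpa1 at 6.42 ± 0.36, near C means of 6.58 ± 0.21 and 6.21 ± 0.25, whereas Cabyr was at 6.63 ± 0.48 against 5.33 ± 0.21 in C.

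The circadian clock list, whose members form the transcriptional loop that keeps daily time, had 2 of 17 tested members higher in CR and a median of 0.20. Cry1, a repressor of the loop, was at 7.50, 6.25, 7.87, 7.10 and 8.17 in CR against 6.17, 6.57 and 6.84 in C (0.86, SE 0.22, adjusted p = 0.0466), with B4_5 near the bottom of the C range. Its call ended with any of A4_13, A4_17, A4_19, A4_21, A4_3, A4_5, A4_9, B4_1, B4_3, B4_7 or B4_13 left out, at an adjusted p up to 0.151. Rora, a nuclear receptor that activates the loop, was above every C mouse in all CR mice (9.26, 9.64, 9.46, 9.32 and 9.60 against 8.84, 8.97 and 9.08) and kept its call whichever mouse was left out (0.49, SE 0.09, adjusted p = 0.0055). Cry2 did not pass (0.27, SE 0.08, adjusted p = 0.0685). All mice were sacrificed in an afternoon window of a few hours, over consecutive weeks. The hour of each mouse within it was not given in the sources used here, and its part in these differences was not tested.

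**Figure D3:**
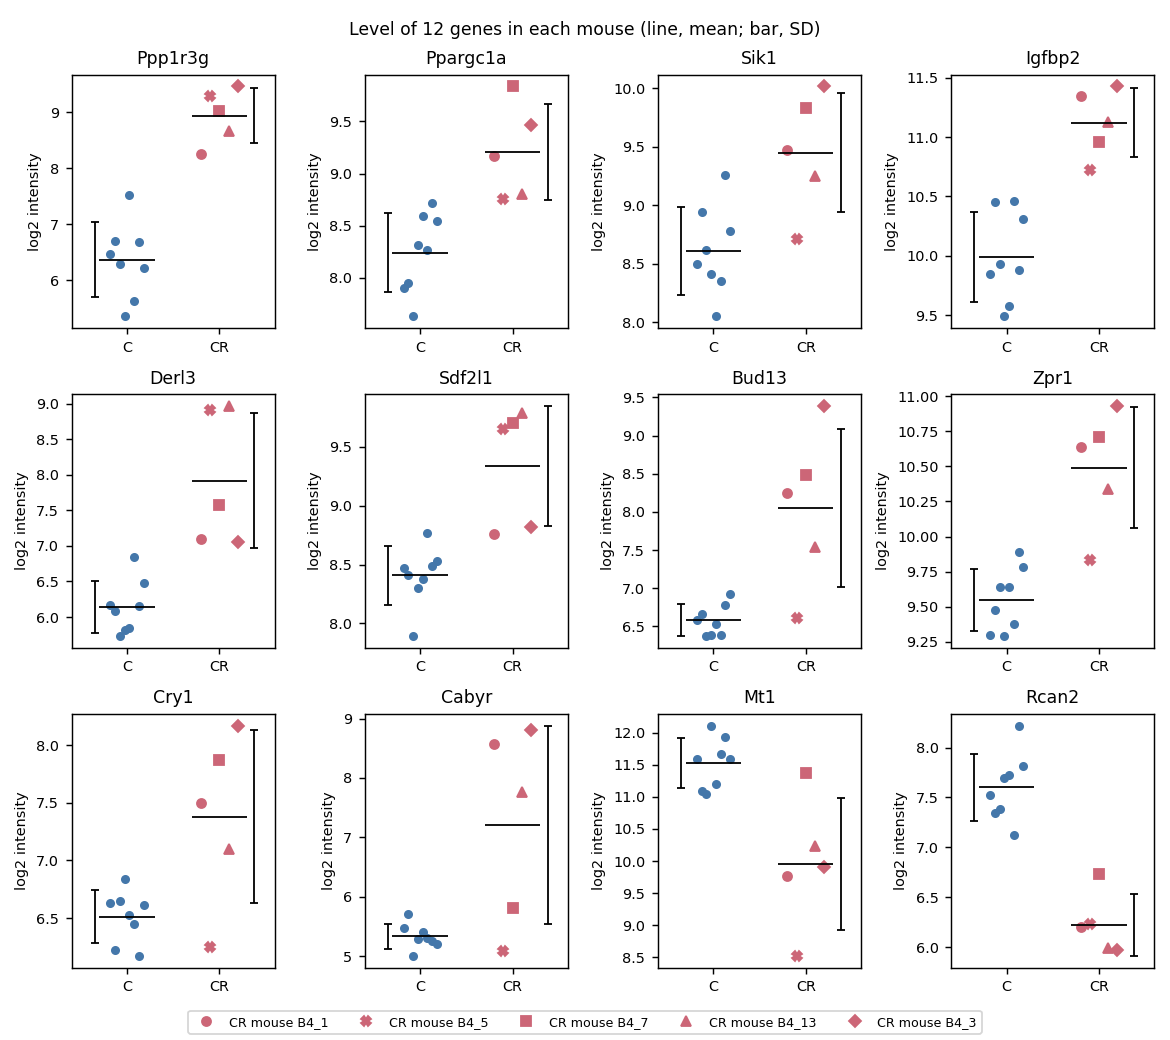
Panels show the log2 intensity of 12 genes in the 8 C mice (blue) and 5 CR mice (red, a symbol for each mouse), with group means as lines and SD as bars. B4_5 (cross) sits with C in Bud13, Zpr1, Cry1 and Cabyr but with the other CR mice in Ppp1r3g and Rcan2, and has the lowest Mt1 level.

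In the fit over all arrays, the list of protein folding in the ER held the most called genes of all lists. This rank depended on the setting. Without B4_5 the list of interferon-responsive genes held 7 calls and the ER list 1. With C and CR arrays only, these lists held 6 and 5. Without A4_1 the ER, MHC class II and fibrosis lists held 5 calls each. By share of tested members, the list of recruited and lipid-associated macrophage markers, described below, was ahead, with 3 of 10 called against 5 of 26. Within plate G150 it held 3 calls and the ER list 2. Of 26 tested ER chaperone and stress genes, 5 were higher in CR and none lower, and 23 of 27 measured members had a positive difference, with a median of 0.15. The 5 were Derl3, which passes misfolded proteins out of the ER for degradation, the co-chaperones Sdf2l1 and Dnajc3, the chaperone Hyou1 and the disulfide isomerase Pdia6. Promoters were searched for the ER stress response element, the binding motif of the stress factor ATF6 and its partner NF-Y. It was spelled CCAAT, then 9 bases of any kind, then CCACG, and sought on both strands in RefSeq windows of 300 bases. The motif was found in 39 of 32851 windows of all genes (0.119%), in 17 of 13967 windows of the genes tested (0.122%), in 4 of 109 windows of genes called higher and in 0 of 120 windows of genes called lower. The 4 genes were Derl3, Dnajc3, Pdia6 and Ero1b, the last an oxidase that drives disulfide formation in the ER. Their 250 bases before the start site are printed below because they hold the shared motif, which is in capitals. These lie on the plus strand of GRCm38.p6 at chr10:75893148-75893397, chr14:118937682-118937931, chr12:17266339-17266588 and chr13:12565633-12565882, and the motif begins 156, 105, 98 and 201 bases before the start site in that order.
Derl3: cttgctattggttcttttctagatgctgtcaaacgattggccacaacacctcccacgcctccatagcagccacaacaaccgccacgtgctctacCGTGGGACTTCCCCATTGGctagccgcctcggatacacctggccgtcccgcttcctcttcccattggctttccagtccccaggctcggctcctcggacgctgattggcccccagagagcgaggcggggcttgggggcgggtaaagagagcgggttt
Dnajc3: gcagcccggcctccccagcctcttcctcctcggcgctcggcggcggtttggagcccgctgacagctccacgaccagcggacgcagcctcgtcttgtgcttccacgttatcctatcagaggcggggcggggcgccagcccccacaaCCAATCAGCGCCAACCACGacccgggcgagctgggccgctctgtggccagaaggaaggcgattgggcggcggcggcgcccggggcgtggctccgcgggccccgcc
Pdia6: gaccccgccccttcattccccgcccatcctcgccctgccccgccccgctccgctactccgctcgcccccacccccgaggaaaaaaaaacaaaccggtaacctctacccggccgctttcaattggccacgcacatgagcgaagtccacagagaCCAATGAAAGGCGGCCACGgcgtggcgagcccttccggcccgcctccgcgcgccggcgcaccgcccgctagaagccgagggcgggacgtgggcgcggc
Ero1b: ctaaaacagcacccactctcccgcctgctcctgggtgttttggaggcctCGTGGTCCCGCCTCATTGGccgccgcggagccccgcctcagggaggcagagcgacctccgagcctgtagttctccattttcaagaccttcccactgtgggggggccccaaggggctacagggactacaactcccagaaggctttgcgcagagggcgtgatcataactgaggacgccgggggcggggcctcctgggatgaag

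As a description of letters only, the motif reads in reverse in Derl3 and Ero1b, and windows were at hand for 87 of the 107 genes called higher and for 93 of the 113 called lower. Sdf2l1 had a window without the motif, and Hyou1 was not matched to a window. A cyclic AMP response element, TGACGTCA, was present in 377 of 13967 windows of the genes tested (2.7%), in 2 of 109 for genes called higher and in 5 of 120 for genes called lower, the last from 4 genes.

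Derl3 stood at 7.10, 8.91, 7.58, 8.97 and 7.06 in CR against 5.73, 6.12 and 6.85 in C, with no overlap (1.78, SE 0.29, adjusted p = 0.00288). Sdf2l1 was at 8.76, 9.65, 9.70, 9.79 and 8.82 against 7.89, 8.44 and 8.77 (0.94, SE 0.22, adjusted p = 0.0297). Hyou1 was at 9.39, 9.99, 9.58, 9.71 and 9.42 against 8.65, 8.82 and 9.56 (0.66, SE 0.17, adjusted p = 0.0491). In these genes B4_1 and B4_3 were the CR mice nearest to C, while in Bud13, Cabyr and Sftpa1 the same mice were far above it. Pdia6 differed by 0.54 (9.04, 9.82, 9.50, 9.66 and 9.16 against 8.65, 8.91 and 9.21, SE 0.12, adjusted p = 0.0275). Dnajc3 differed by 0.38 with no overlap (10.69, 10.95, 11.01, 10.98 and 10.76 against 10.32, 10.52 and 10.61, SE 0.09, adjusted p = 0.0333). Derl3 kept its call whichever mouse was left out. The other 4 calls ended without A4_17, B4_5, B4_7 or B4_13, with the highest adjusted p without B4_13 (0.0904 for Sdf2l1, 0.0979 for Hyou1, 0.0727 for Pdia6 and 0.0877 for Dnajc3). Those of Sdf2l1 and Dnajc3 also ended without A4_3 or A4_5, that of Dnajc3 without B4_1 or B4_3, and that of Hyou1 without A4_13, A4_19, A4_21, A4_5, A4_9, B4_1 or B4_3. The list had 1 called member without B4_5, 5 without A4_1 and 2 within plate G150.

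Further genes of the secretory route passed the test, and those outside the list were picked after their values were seen. Ero1b rose by 0.57 (8.39, 8.08, 8.15, 8.48 and 8.31 against 7.35, 7.73 and 8.02, SE 0.13, adjusted p = 0.0248), with every CR mouse above C. Serp1, which stabilises membrane proteins under stress, rose by 0.33 (SE 0.07, adjusted p = 0.0162), and the signal peptidase subunit Spcs3 by 0.30 (SE 0.07, adjusted p = 0.0273). Differences of 0.28 for the thioredoxin-like Txndc5, 0.41 for the prolyl isomerase Fkbp11 and 0.22 for the translocon subunit Ssr4 had adjusted p of 0.0321, 0.0462 and 0.0453. All 6 lost the call with some mouse left out (from 1 mouse for Serp1 to 11 for Fkbp11), at highest adjusted p of 0.0705, 0.0528 and 0.0828 without B4_3 for Ero1b, Serp1 and Spcs3, 0.109 without B4_1 for Txndc5, 0.0932 without B4_5 for Fkbp11 and 0.139 without B4_3 for Ssr4.

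Addition of N-glycans to secreted proteins takes place in the same compartment, and the 25 tested N-glycan genes had 1 called higher, 1 called lower and a median of 0.04. Rpn2, a subunit of the oligosaccharyltransferase, was higher by 0.24 with no overlap between groups (9.84, 9.88, 9.91, 9.83 and 10.01 against 9.54, 9.65 and 9.78, SE 0.05, adjusted p = 0.0273). The lysosomal enzyme Hexa, which trims glycans, was lower by 0.53 (SE 0.13, adjusted p = 0.0394). Uggt1, the folding sensor that reglucosylates glycoproteins, was at 0.30 (SE 0.09, adjusted p = 0.0682), and the core fucosyltransferase Fut8 was at -0.38 (5.66, 5.88, 6.05, 5.92 and 5.86 against 6.08, 6.27 and 6.46, SE 0.13, adjusted p = 0.0977). Every CR mouse was below every C mouse in Fut8 although the test did not pass. The calls of Rpn2 (without A4_17, A4_3, B4_1, B4_3 or B4_7) and Hexa (without A4_17, A4_19, A4_3, A4_5, B4_1, B4_3, B4_7 or B4_13) ended at adjusted p up to 0.101 and 0.0976.

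Mitochondrial genes had small differences, positive in nearly every member, of which none passed the test with all mice. Without A4_1, the C mouse that lay among the CR mice, 2 subunits of complex I and 3 of complexes II to V were called higher. Of 35 complex I subunits 34 had a higher mean in CR, with a median of 0.17, 6 at an unadjusted p of 0.01 and none at the adjusted threshold. Of the 37 measured subunits of complexes II to V all 37 had a higher mean, with a median of 0.17, and 8 of the 36 tested were at an unadjusted p of 0.01. The 23 tricarboxylic acid cycle genes had 21 positive differences, a median of 0.16 and 3 at that level. Examples are the complex I subunits Ndufa8 (0.25, SE 0.08, adjusted p = 0.0742) and Ndufb8 (0.35, SE 0.12, adjusted p = 0.0993). In complexes II to IV, Sdha was at 0.28 (SE 0.09, adjusted p = 0.0794), Cyc1 at 0.28 (SE 0.08, adjusted p = 0.0732) and Cox5a at 0.28 (SE 0.09, adjusted p = 0.0744). Cyc1 was at 11.37, 11.40, 11.30, 11.41 and 11.40 against 10.85, 11.12 and 11.26, so that its groups did not overlap. The mean level of the complex II to V list was 10.76 to 10.89 in CR and 10.48 to 10.84 in C, where A4_1 was the highest C mouse. Pdk1, which inhibits pyruvate dehydrogenase, was at 0.42 (SE 0.13, adjusted p = 0.0742).

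All 20 measured genes of cholesterol synthesis had a higher mean in CR, with a median of 0.57, none called, and 4 at an unadjusted p of 0.01. Insig1, which restrains the sterol sensor SREBP, was at 11.03, 11.48, 10.52, 10.99 and 10.63 in CR against 8.77, 10.02 and 10.85 in C (0.93, SE 0.27, adjusted p = 0.0682), and the sterol carrier Stard4 was at 0.73 (SE 0.22, adjusted p = 0.0705). The C mice themselves ranged widely, from a list mean of 8.17 to 10.35, which enclosed all but the 10.38 of the CR mouse B4_5. The median was 0.93 within plate G150 and 3 members were called without A4_1. Among 26 genes of fatty acid and triglyceride synthesis 23 had a positive difference with a median of 0.34. The list mean was 11.08 in B4_5 against 10.38 to 10.64 in the other CR mice, and without B4_5 the median was 0.18. The 1 called was Mlxipl, which encodes the glucose-sensing factor ChREBP (10.80, 11.02, 10.88, 10.81 and 10.83 against 10.05, 10.47 and 10.72), at 0.42 (SE 0.10, adjusted p = 0.0276) with no overlap. Its call ended without A4_17, A4_3, B4_1, B4_3, B4_7 or B4_13 (adjusted p up to 0.0763).

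Genes of PPARgamma and lipid uptake had 13 of 16 negative differences and a median of -0.49, and none was called, or 1 without B4_5. The fatty acid transporter Cd36 was at 10.28, 11.01, 10.49, 10.27 and 9.73 in CR against 10.49, 11.15 and 11.42 in C (-0.71, SE 0.23, adjusted p = 0.0885). Pparg, the receptor that drives lipid storage, was at -0.54 (SE 0.19, adjusted p = 0.112). The lipid droplet gene Cidea was at 4.54, 5.61, 4.05, 4.60 and 3.96 against 4.04, 7.31 and 9.02, a difference of -2.28 whose SE of 0.76 left it at an adjusted p of 0.0992. The 30 genes of PPARalpha and fatty acid oxidation had a median of 0.03 and none at an unadjusted p of 0.01. Cpt1a, the entry enzyme of fatty acid oxidation, was at -0.15 (SE 0.08, adjusted p = 0.282).

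Liver genes with a sex bias, which follow the pulses of growth hormone, varied widely among the mice of both groups. Susd4, a complement regulator that is higher in male liver, was the 1 called of 17 tested male-biased genes (9.11, 8.82, 8.07, 9.59 and 9.39 against 6.60, 7.51 and 8.78, a difference of 1.44, SE 0.35, adjusted p = 0.0332). CR-MF mice were also high in Susd4, at 9.35 ± 0.58. The call ended without A4_13, A4_17, A4_19, A4_3, A4_9, B4_1, B4_3 or B4_13 (adjusted p up to 0.112). The steroid dehydrogenase Hsd3b5, a strongly male-biased gene, was at 8.75, 5.28, 3.92, 10.22 and 9.97 in CR against 3.40, 4.88 and 7.73 in C (2.58, SE 0.87, adjusted p = 0.103). B4_7 and B4_5 were thus at C levels and the other CR mice above them. B4_7 also had the lowest mean of the male-biased list among CR mice (8.05, against 9.34 to 10.01 in the others) and the highest mean of the female-biased list (8.02 against 6.65 to 7.24). This pattern was not particular to CR. Among C mice, A4_9 had the lowest male-biased mean (7.91, with C up to 9.33) and the highest female-biased mean (7.86, with C down to 6.94). The medians of the tested members were 0.34 and -0.23, and within plate G150, which held B4_7, they were 0.01 and 0.12.

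Among the other genes with large rises, Ceacam2, a cell adhesion molecule of the immunoglobulin family, was at 7.02, 7.40, 6.31, 6.81 and 6.57 in CR against 4.55, 5.26 and 6.30 in C (1.53, SE 0.25, adjusted p = 0.00288). Etfbkmt, which methylates the electron transfer flavoprotein, was at 10.29, 9.51, 9.96, 9.90 and 9.79 against 8.63, 8.89 and 9.29 (0.98, SE 0.16, adjusted p = 0.00288). Neither gene overlapped between groups. CR-MF means of 5.37 ± 0.29 and 8.96 ± 0.46 were close to the C means of 5.29 ± 0.57 and 8.91 ± 0.21. Rps23rg1, a retroposed copy of a ribosomal protein gene whose probes may share signal with that gene, was at 1.06 (SE 0.25, adjusted p = 0.0298, up to 0.0841 with 1 mouse left out and lost without A4_17, A4_3, A4_5, B4_1, B4_5 or B4_13). Spen, a transcriptional repressor, was singled out for its small p. It was at 8.29, 8.40, 8.46, 8.46 and 8.61 against 7.97, 8.02 and 8.18, a difference of 0.39 (SE 0.05, adjusted p = 0.000721). The co-chaperone Dnaja4, chosen likewise, differed by 0.64 (SE 0.10, adjusted p = 0.00224).

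**Figure D4:**
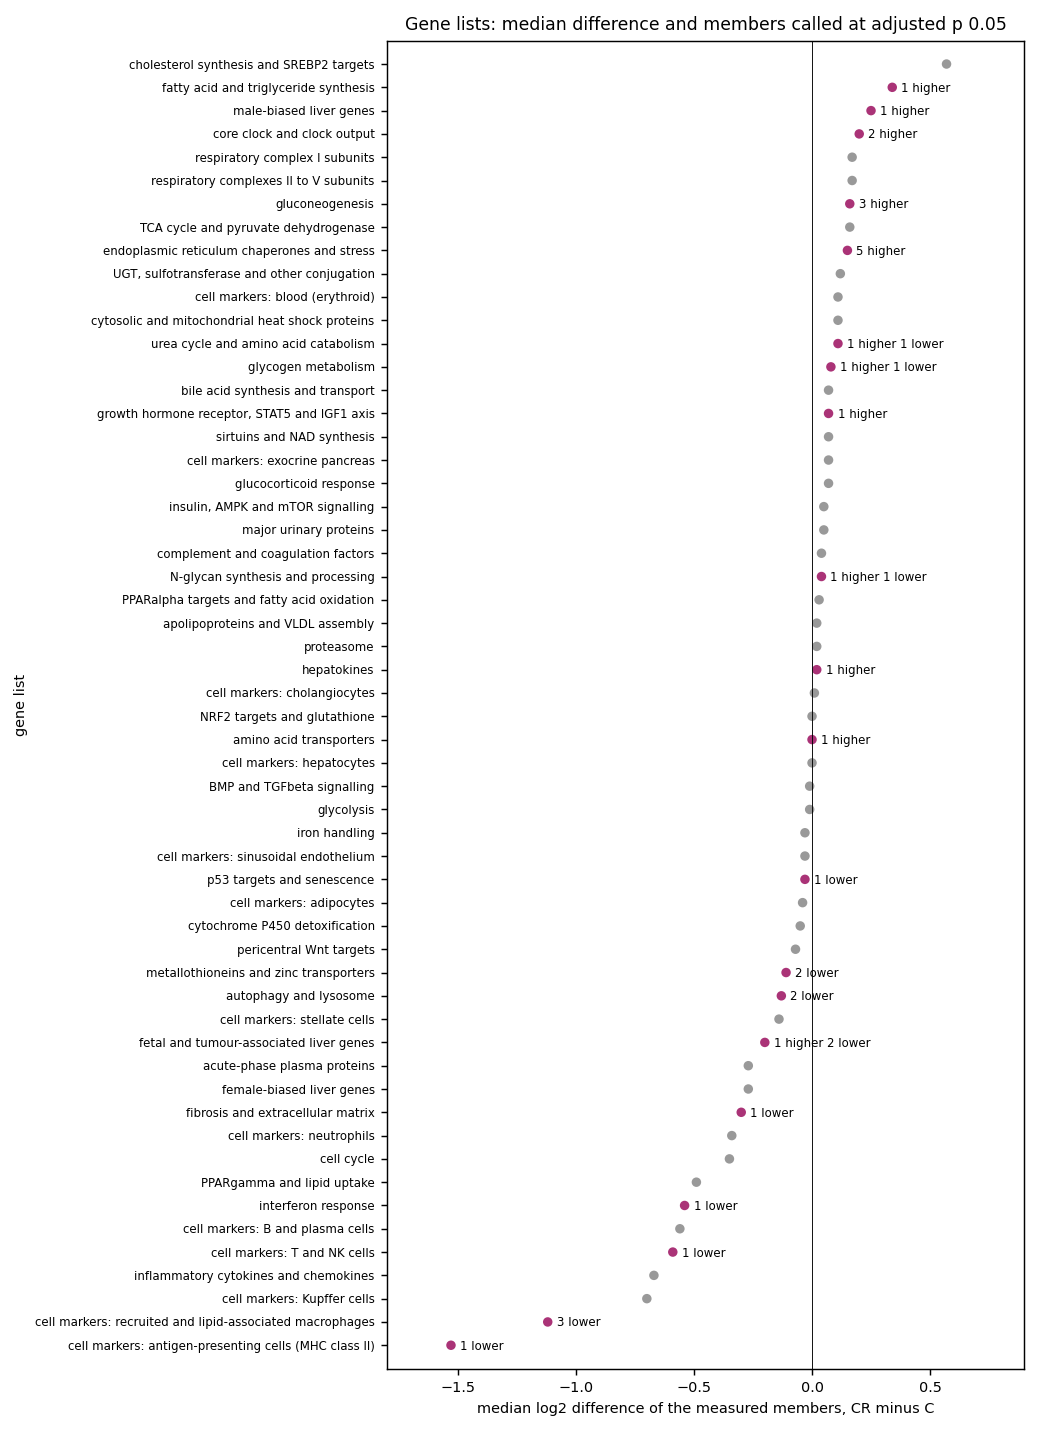
Each point is the median log2 difference (CR minus C) of the measured members of 1 gene list, and the text beside it counts members called at an adjusted p of 0.05. Cholesterol synthesis lies highest at 0.57 with no call, ER chaperones hold 5 higher calls, and the lists of MHC class II and recruited macrophages lie lowest at -1.53 and -1.12.

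Markers of recruited and lipid-associated macrophages were lower in CR, with 3 of 10 tested members called, all 10 negative and a median of -1.12. The mean level of the list was 6.41 to 6.68 in CR and 7.03 to 8.35 in C, so that no mouse overlapped. Trem2, a lipid receptor of these cells, was at 5.94, 6.71, 6.39, 6.48 and 6.07 in CR against 6.75, 7.99 and 9.08 in C (-1.63, SE 0.39, adjusted p = 0.0311). Lgals3 (galectin 3) was at -1.13 (SE 0.26, adjusted p = 0.0276), and Ccr2, the chemokine receptor that brings monocytes in from blood, was at 4.44, 5.08, 5.05, 5.15 and 4.76 against 5.16, 5.88 and 6.74 (-1.10, SE 0.27, adjusted p = 0.0326). In Trem2 and Ccr2 the lowest C value was that of A4_1, just above the highest CR mouse. The count was 4 without A4_1, 3 without B4_5 and 3 within plate G150. All 3 calls ended without A4_17, A4_5, B4_1, B4_3, B4_7 or B4_13, those of Trem2 and Lgals3 also without A4_3 and that of Ccr2 without A4_9, at adjusted p up to 0.101, 0.0799 and 0.106.

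Presentation of antigen by MHC class II is a task of macrophages, dendritic cells and B cells. H2-Aa was the 1 called of 7 tested members, at 8.97, 8.86, 8.54, 9.33 and 8.95 in CR against 9.02, 10.73 and 11.53 in C (-1.62, SE 0.42, adjusted p = 0.0484). Its partner chain H2-Ab1 was at -1.56 (SE 0.44, adjusted p = 0.0626) and the invariant chain Cd74 at -1.53 (SE 0.42, adjusted p = 0.0549). The list mean was 7.48 to 7.86 in CR, 7.63 in A4_1 and up to 9.81 in C. Without A4_1 the list had 5 calls and a median of -1.77, and without B4_5 it had none. The call of H2-Aa also ended without A4_17, A4_21, A4_3, A4_5, A4_9, B4_1, B4_3, B4_7 or B4_13 (adjusted p up to 0.113), and it was at 0.0643 within plate G150.

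The largest falls also took in the following genes, which belong to no list used here and are given for their size. Capg, an actin-capping protein of macrophages, was at 6.16, 6.12, 5.66, 6.26 and 6.22 in CR against 6.46, 7.87 and 8.51 in C (-1.59, SE 0.40, adjusted p = 0.0394). Ms4a6d and Ms4a6c, membrane proteins of myeloid cells, were at -1.60 (SE 0.41, adjusted p = 0.0466) and -1.56 (SE 0.36, adjusted p = 0.0276). Clec7a (Dectin-1, a receptor for fungal glucans) was at -1.51 (SE 0.40, adjusted p = 0.0491) and Havcr2 (TIM-3, an inhibitory receptor) at -1.47 (SE 0.35, adjusted p = 0.029). Cyp4f18, which inactivates leukotriene B4, was at -1.59 (SE 0.38, adjusted p = 0.032). Fabp7, a fatty acid binding protein, was at 9.18, 8.98, 9.32, 9.06 and 8.69 against 9.31, 10.34 and 11.27 (-1.33, SE 0.33, adjusted p = 0.0355). In 10 of the 14 named falls A4_1 was the lowest of the C mice, and its removal ended none of the 28 calls. All 7 genes of this paragraph lost the call without A4_17, A4_3, B4_1, B4_3 or B4_13, some also without A4_13, A4_21, A4_5, A4_9, B4_5 or B4_7, at adjusted p up to 0.124.

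**Figure D5:**
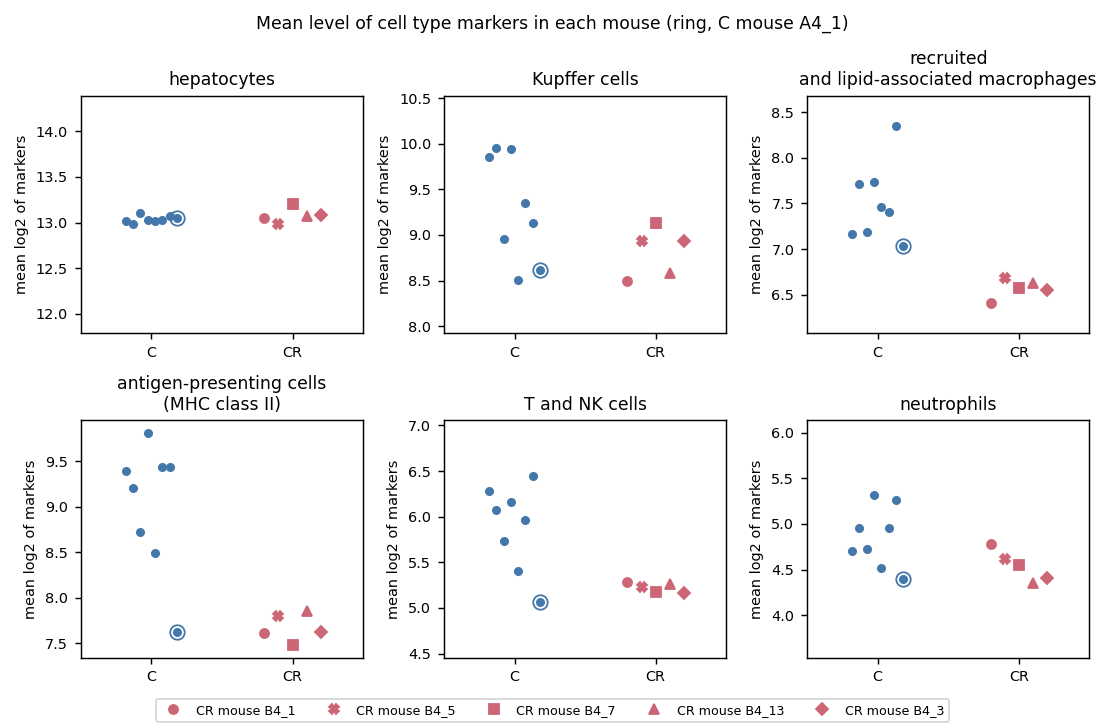
Panels show the mean log2 level of the measured markers of 6 cell types in each C mouse (blue, ring for A4_1) and CR mouse (red symbols), with panels of equal height in log2. Hepatocyte markers are flat at about 13, while the recruited macrophage panel has all CR mice below 6.7 and all C mice above 7.

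Kupffer cell markers had a median of -0.70 with 10 of 12 negative, 4 at an unadjusted p of 0.01 and none called. The complement subunit C1qb was at 10.35, 10.44, 10.74, 10.21 and 10.50 in CR against 10.55, 11.43 and 11.82 in C (-0.84, SE 0.23, adjusted p = 0.0559), and Vsig4, a complement receptor of Kupffer cells, was at -1.06 (SE 0.31, adjusted p = 0.067). Without A4_1, 4 members were called. All 14 measured T and NK cell markers were lower in mean with a median of -0.59. The 1 called, Themis, which tunes T cell receptor signals, was at 4.76, 5.73, 4.69, 4.76 and 4.35 against 5.27, 6.24 and 6.64 (-1.25, SE 0.27, adjusted p = 0.0216, ended without B4_1, B4_3 or B4_13 at up to 0.0832). Neutrophil markers (median -0.34) and B and plasma cell markers (median -0.56) had no call. Markers of sinusoidal endothelium (-0.03) and cholangiocytes (0.01) had medians near that of all genes. Stellate cell markers had a median of -0.14 with 7 of 10 negative. None of these lists held a call. With C and CR arrays only in the fit, 1 stellate cell marker and 1 endothelial marker were called lower. The part of cell content in the differences of other genes was not tested.

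Inflammatory cytokines and chemokines had 23 of 24 negative differences and a median of -0.67, with none called, or 2 without A4_1. The macrophage chemokine Ccl3 was at 5.85, 5.18, 5.51, 5.55 and 5.88 in CR against 6.02, 7.49 and 9.03 in C (-1.91, SE 0.50, adjusted p = 0.0508). Its groups did not overlap, and the same held for Cxcl10, which attracts T cells (5.99, 5.72, 6.04, 6.68 and 6.43 against 6.82, 7.26 and 8.10, a difference of -1.14, SE 0.34, adjusted p = 0.0732). Interferon-responsive genes had 28 of 31 negative differences, a median of -0.54 and 14 at an unadjusted p of 0.01. Oas2, which senses viral RNA, was the 1 called (5.99, 6.84, 6.77, 6.18 and 6.49 against 6.90, 7.46 and 8.07, a difference of -1.0, SE 0.24, adjusted p = 0.028, up to 0.0934 and lost without A4_17, A4_3, A4_5, B4_1, B4_3 or B4_13). Mx1 was at -0.56 (SE 0.15, adjusted p = 0.0515). Without B4_5, whose list mean of 8.07 was well above the 7.19 to 7.48 of the other CR mice, 7 members were called, and within plate G150 the median was -0.34 with none. The C mice ranged from 7.64 to 8.42, and here A4_1 was the highest of them.

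Acute-phase plasma proteins, which hepatocytes release in inflammation, had all 23 differences negative with a median of -0.27 (-0.16 within plate G150) and no call. With C and CR arrays only in the fit, 3 were called lower. The serum amyloid Saa2 was at 7.69, 7.98, 9.78, 10.39 and 7.90 in CR against 9.68, 10.76 and 12.44 in C (-2.15, SE 0.73, adjusted p = 0.104). Lcn2, an iron-chelating acute-phase protein, was at 9.65, 9.97, 12.27, 9.98 and 10.01 against 11.09, 12.01 and 12.89 (-1.65, SE 0.50, adjusted p = 0.0744), where B4_7 was at the C level. Extracellular matrix and fibrosis genes had 25 of 28 negative differences, a median of -0.30 and 8 at an unadjusted p of 0.01. Timp2, an inhibitor of matrix metalloproteases, was the 1 called (7.76, 7.98, 7.72, 7.92 and 7.71 against 8.01, 8.62 and 9.00, a difference of -0.73, SE 0.19, adjusted p = 0.0442, up to 0.116 and lost without A4_17, A4_21, A4_3, A4_5, A4_9, B4_1, B4_3, B4_7 or B4_13). The list had 5 called members without A4_1, whose list mean of 6.84 was the lowest in C, 2 without B4_5, and none within plate G150. CR-MF mice were at 7.85 ± 0.35 in Timp2, near the CR mean of 7.82 ± 0.12. Autophagy and lysosome genes had 2 of 24 called lower (4 without A4_1, 3 without B4_5) and a median of -0.13. These were Ctsa, a protective lysosomal protease (-0.27, SE 0.06, adjusted p = 0.028), and Hexa, and both ended with some mice left out, Ctsa at up to 0.089 without A4_17, A4_3, B4_1, B4_3, B4_7 or B4_13 and Hexa as given with the glycan genes.

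The metallothioneins Mt1 and Mt2, which bind zinc and copper and rise with metals and glucocorticoids, were both lower in CR. Mt1 was at 9.77, 8.52, 11.38, 10.24 and 9.91 in CR against 11.04, 11.59 and 12.11 in C (-1.56, SE 0.37, adjusted p = 0.0286). Mt2 was at 11.74, 9.64, 12.88, 12.43 and 11.43 against 12.74, 12.96 and 13.36 (-1.37, SE 0.32, adjusted p = 0.0276). B4_7 lay at C levels in both genes, and B4_5 had the lowest level of all mice. They were the only 2 called of 16 tested metallothionein and zinc transporter genes, whose median was -0.11 over 17 measured. CR-MF mice averaged 11.48 ± 0.75 and 12.75 ± 0.48, near the C means of 11.53 ± 0.39 and 12.99 ± 0.20. Both calls ended without A4_17, A4_3, B4_1 or B4_3, and that of Mt1 also without B4_5 or B4_13 (adjusted p up to 0.0908 and 0.0943). The AIN-93W-CR diet was enriched in minerals, by the paper so as to match those fed to C mice. Its part in these levels was not tested.

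The fall with the smallest p was that of Rcan2, an inhibitor of the phosphatase calcineurin that is induced by thyroid hormone. It was at 6.20, 6.23, 6.73, 5.99 and 5.97 in CR against 7.12, 7.61 and 8.22 in C (-1.38, SE 0.20, adjusted p = 0.000978), with no overlap. CR-MF mice were at 6.39 ± 0.35, near the CR mean of 6.22 ± 0.31, and MF mice at 7.75 ± 0.45. Cntnap1, a contactin-associated protein known from myelinated axons, was at 4.75, 4.98, 4.78, 4.16 and 5.05 against 4.99, 6.56 and 6.86 (-1.52, SE 0.27, adjusted p = 0.00565). Ly6d, a surface protein anchored by glycolipid, was at 5.90, 8.04, 6.47, 6.76 and 6.01 against 7.34, 8.39 and 9.65 (-1.85, SE 0.48, adjusted p = 0.0478). Its call ended without A4_17, A4_19, A4_3, A4_5, A4_9, B4_1, B4_3, B4_7 or B4_13 (adjusted p up to 0.135), while Rcan2 and Cntnap1 kept theirs with any 1 mouse left out.

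Of 19 tested p53 and senescence genes, Ccng1 was the 1 called. This p53 target, cyclin G1, was at 9.33, 9.70, 9.42, 9.62 and 9.42 in CR against 9.99, 10.09 and 10.29 in C, with no overlap (-0.61, SE 0.10, adjusted p = 0.00438). The median of the list was -0.03, and Cdkn1a, which encodes the cell cycle inhibitor p21, was at 6.53, 7.79, 8.99, 7.54 and 9.60 against 7.93, 8.88 and 10.81 (-1.12, SE 0.60, adjusted p = 0.301). Bak1, a pore-forming protein of apoptosis, and Cd81, a tetraspanin, were singled out because they also kept their calls with any 1 mouse left out. Bak1 was at 7.48, 7.63, 7.17, 7.71 and 7.38 against 7.80, 8.06 and 8.43 (-0.61, SE 0.11, adjusted p = 0.00947), and Cd81 was at -0.32 (SE 0.06, adjusted p = 0.00525). No mouse overlapped between groups in either gene.

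Several lists had no called member and a median near 0. These were glycolysis (-0.01), apolipoproteins (0.02), bile acid synthesis and transport (0.07), insulin, AMPK and mTOR signalling (0.05), sirtuins and NAD synthesis (0.07), NRF2 targets (0.00), cytochrome P450 detoxification (-0.05), proteasome (0.02), major urinary proteins (0.05) and iron handling (-0.03). Over the 13 tested glycolysis genes the median was -0.1. Only 5 of the 21 listed major urinary protein genes were measured, and within plate G150 their median was -0.16. Cell cycle genes had a median of -0.35 with 18 of 25 negative and no member at an unadjusted p of 0.01. Their mean level was 6.58 in B4_5 against 5.49 to 5.70 in the other CR mice and 5.76 to 6.45 in C. Without B4_5 the median of the 24 tested was -0.65 in place of -0.36 and 2 were called lower, and within plate G150 it was -0.12. Heat shock proteins (0.11), conjugating enzymes (0.12), complement and coagulation factors (0.04), the glucocorticoid response (0.07), pericentral Wnt targets (-0.07) and BMP and TGFbeta signalling (-0.01) likewise held no call. Without B4_5, 1 member each was called higher in the glucocorticoid, insulin and sirtuin lists. Without A4_1, 1 each was called higher in the glycolysis, bile acid and NRF2 lists, and 1 lower in the cytochrome P450 list. With C and CR arrays only, 1 each was called lower in the glycolysis, glucocorticoid and pericentral Wnt lists. In that fit 1 each was called higher in the bile acid, sirtuin and NRF2 lists. A p above the threshold does not show that these genes were equal.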

How the data were processed

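Liver RNA of each mouse was hybridised by the authors to 1 Affymetrix Mouse Gene 1.1 ST array, and every mouse is a biological replicate. Their deposited table gives log2 intensities for transcript clusters, normalized jointly with Robust Multiarray Average per the labels. Of 35556 clusters, 21218 had 1 gene symbol, and the cluster with the highest mean was taken for each of 18820 genes. A gene was tested if its intensity passed 20 on 5 or more arrays and its interquartile range exceeded 0.1, which kept 13993 and took out 4827. A linear model over all 27 arrays, which share 1 estimate of the spread, gave CR minus C (R 4.3.3, limma 3.58.1, eBayes with trend, 23 residual degrees of freedom), with Benjamini-Hochberg adjustment. On simulated data of 13993 genes, log2 changes of 1 and 0.5 between CR and C were recovered in 96% and 64% of genes. There were 10 false calls. The simulated noise was normal, independent between genes and of equal spread in all groups. It held no deviation shared by the genes of a mouse, unlike the measured arrays, where single mice stood apart. Whether these rates hold for the measured arrays was not tested. Component scores and spread of C and CR mice were tested with exact two-sided permutation, whose smallest possible p is 0.000777. The sign of a component is arbitrary and was set so that CR is higher.

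Members, lists and rules were chosen with earlier results of these data known. Named genes are the 14 largest rises and 14 largest falls at an adjusted p of 0.05, without predicted gene models, 3 members per list by smallest p, and genes that the paper names. Others are said to be picked after their values were seen. Alternatives were quantile normalization, median centring, other filters and variance models, array weights, plate and animal number as blocks, and leaving out mice. Array precision is limited by the number of arrays and by signal over background. Numbers that end the array names, taken for animal numbers, are shared by 4 pairs of C and CR mice. The deviations of these mice from their group means correlated at 0.055 to 0.238. They were not taken as pairs, though so few values cannot decide whether the numbers mark pairs. Promoter windows are those of RefSeq on GRCm38.p6, and the build of the array design is not given in the sources used here.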

Additional observations from a re-analysis of the deposited data

Results flagged for a closer look

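In groups of 8 C and 5 CR mice, 234 sets of values were tested for a single mouse far from the rest, and 10 were flagged by a gap that was large for the range of the group. Chance flags about 1 in 20 such sets. The CR mouse B4_5 was low in Apoa5 (11.43, next value 11.76) and high in Acly, the enzyme that makes acetyl-CoA for lipid synthesis (11.88, next 10.24), and in Fkbp11 (6.02, next 5.57). The CR mouse B4_7 was high in Lcn2 (12.27, next 10.01) and the chemokine Ccl6 (8.54, next 7.86), and low in Capg (5.66, next 6.12) and Sdha (11.22, next 11.42). The C mouse A4_1 was high in Cry2 (8.67, next 8.39) and low in H2-Ab1 (8.75, next 10.26). The C mouse A4_13 was low in Cyp17a1, a steroid hydroxylase (10.25, next 11.48).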

How the results depend on the processing

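The number of genes at an adjusted p of 0.05 (220) was 70 with no filter over all transcript clusters, 493 with C and CR arrays only, 1077 with array weights and 52 within plate G150. With animal number as a replicate block it was 8, of which 6 were among the 220. Whether the numbers mark pairs is not known. Leaving out 1 mouse gave 42 to 569, and leaving out both A4_1 and B4_5, chosen after seeing the data, gave 580 (280 higher, 300 lower). With C and CR arrays only, 141 genes were higher and 352 lower. This fit called lower 6 interferon, 5 MHC class II, 5 fibrosis, 5 recruited macrophage, 3 cytokine, 3 acute-phase and 2 Kupffer cell genes. With all 27 arrays the same lists had 1, 1, 1, 3, 0, 0 and 0 such calls. Fewer were called in others, such as the clock list (1 in place of 2 higher) and metallothioneins (1 in place of 2 lower). The number at an unadjusted p of 0.01 (1123) was 1726 with no filter and 1715 with array weights, and 773 to 1366 with 1 mouse left out. Counts under quantile normalization (273), median centring (247), an intensity above 100 (254), no trend (213), robust eBayes (209), intensity-based moderation (223) and plate as a block (206) stayed within 1.5 times. The spread difference between CR and C of -0.0229 was 0.00782 within plate G150 and ran from -0.0423 to -0.0126 with 1 mouse left out. None of 114 genes examined, which include those named in the text, changed direction under any setting run. Many of these were picked for a small p, which makes a change of direction unlikely. Mup21, a major urinary protein gene not named above, was at 0.44 over all arrays and at -0.16 within plate G150. The causes of these shifts were not tested. Signal near background limits the low-intensity genes, such as Nup62cl.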
